A study of Mus musculus with 14 samples.

Results

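The antioxidant and thioredoxin genes described here are Sod1, Sod2, Cat, Prdx1, Prdx2, Txn1, Txnrd1, Gclc, Gclm and Hmox1. They were chosen by name, and every non-control probe that the array design assigns to one of these names was taken. That gave 10 genes and 13 probes, of 34821 gene names and 55681 probes on the array. Cat, Hmox1 and Prdx1 had 2 probes each, and the other 7 genes had 1.

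B-1a cells, a CD5+ kind of innate-like lymphocyte found in body cavities, had been isolated from the peritoneum of Bmi1 KO and WT mice, and the RNA of each sample was read on its own one-colour mouse array. Bmi1 encodes a subunit of Polycomb repressive complex 1, a silencer of developmental and cell cycle genes. The Bmi1 KO arrays numbered 3 in experiment set 1 and 4 in set 2, and the WT arrays likewise 3 and 4. The set was read from the numbering style of the sample titles. The Bmi1 allele, its driver if any, and the age and sex of the mice are not given by the labels. Whether each sample is a different mouse is not stated either, so a p-value measures only how samples spread, possibly for technical reasons, and precision is limited by the number of arrays.

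Cells hold reactive oxygen species in check with enzymes that work in sequence. Superoxide dismutases turn superoxide into hydrogen peroxide, and catalase and the peroxiredoxins remove the peroxide. Thioredoxin, kept reduced by its own reductase, supplies electrons to peroxiredoxins, and glutathione is a further reductant with its own reductase. Several of these genes are targets of the transcription factor NRF2 through antioxidant response elements. In the mouse, raised oxidant levels are known from Bmi1-deficient thymocytes.

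None of the 10 genes passed the test of KO against WT, as 0 of 12 tested member probes had an adjusted p under 0.05 (limma with Benjamini-Hochberg adjustment). Over all 29679 tested probes 9 passed, a share of 0.0303%, with 0.00337% higher and 0.027% lower in KO. Two-sided unadjusted p-values under 0.05 were reached by Txn1 and Prdx1, which read higher in KO, and by Gclm, which read lower. Over all tested probes such a value was reached upward by 8.18% and downward by 5.38%. Txn1 and Prdx1 were among the brightest 25% of probes by mean level, of which 17.9% reached it upward, and Gclm among the dimmest 25%, of which 3.84% reached it downward. No member had non-overlapping genotypes. Txn1 and the dimmer Prdx1 probe had 4 of 7 KO arrays above every WT array, and Sod1 had 4 below every WT array and 3 above. The share of all tested probes with complete separation was 0.128% in either direction.

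Probes are read here against the sequences they carry. The stretches below are printed 5′ to 3′ in the sense of the transcript, for probes on which the comparisons turn. The coding probe of Cat crosses an exon junction on the minus strand within chr2:103297086-103300428 (mm9, as in the scanner files). The other Cat probe lies further 3′ in the untranslated end, at chr2:103294487-103294546, and capitals mark its run of alternating C and A. The brighter Prdx1 probe, at chr4:116371818-116371877 on the plus strand, is shown up to the stop codon of Prdx1 in capitals. The Gclm probe is coding and crosses an exon junction on the plus strand within chr3:121962174-121964809, and the coding Hmox1 probe is at chr8:77620797-77620856 on the plus strand.
Cat, coding probe: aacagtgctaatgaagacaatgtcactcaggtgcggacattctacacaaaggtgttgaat
Cat, CA-run probe: cacatacCACACACACACACACAtgcaata
Prdx1: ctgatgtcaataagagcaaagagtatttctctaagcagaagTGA
Gclm: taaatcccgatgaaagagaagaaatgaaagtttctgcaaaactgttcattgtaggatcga
Hmox1, coding probe: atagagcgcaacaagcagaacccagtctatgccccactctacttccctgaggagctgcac

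The arrays differed in how much they detected, and this touches every member below. The share of probes well above background, as marked by the scanner software, ran between 20.6% and 56.6% on KO arrays and between 43.7% and 63.1% on WT arrays. It was under 40% on 4 KO arrays, set 1 replicate 4 and set 2 replicates 1, 2 and 3, and on 0 WT arrays. Levels are given as log2 signal relative to the 75th percentile of the array's own non-control spots. On that scale the median level of probes not above background lay between −6.31 and −1.52 on KO arrays and between −6.07 and −3.99 on WT arrays, so an undetected probe can read higher on a KO array. Both Bmi1 probes read higher on the KO arrays. One differed by 3.74 (unadjusted p = 0.000504, adjusted p = 0.176, limma) and was detected by 5 KO and 3 WT arrays. The other differed by 1.09 (unadjusted p = 0.240, adjusted p = 0.547, limma) and was detected by 6 KO and 6 WT arrays. No label gives the deleted part of Bmi1, so whether either probe lies in it is not known. The genotype could not be checked from these probes and is taken as labelled. All 7 B cell markers, among them Pax5, were above background on every KO array, and 6 or 7 of 7 on the WT arrays. Of the 4 B-1a markers, 1 to 4 were above background on KO arrays and 3 to 4 on WT arrays. Cd5 was detected by 3 KO and 6 WT arrays, and Bhlhe41, a transcription factor of B-1a cells, by 4 KO and all 7 WT arrays. Spn was detected by 5 KO and 7 WT arrays, and Zbtb32 by 5 KO and 6 WT arrays. The summed linear level of the 4 B-1a markers ran between 12.9 and 176 on KO arrays and between 20.9 and 56.8 on WT arrays. Macrophages and red cells are rich in several of the member enzymes. The summed linear level of 9 macrophage markers ran between 9.81 and 1341 on KO arrays and between 13.9 and 196 on WT arrays, with 3 to 8 of them detected on KO arrays and 5 to 8 on WT arrays. That of 5 erythroid markers ran between 0.209 and 4456 on KO arrays and between 0.122 and 1351 on WT arrays, with 0 to 4 detected in both, and 1 of the 5 was detected on no array. KO set 2 replicate 2 was highest for the macrophage and erythroid lists, and also for the B cell, T and NK, neutrophil and eosinophil, and dendritic lists. The part of other cells and of array brightness in the member values was not tested, and in bulk RNA fewer cells of a type and less RNA per cell cannot be told apart.

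**Figure D1:**
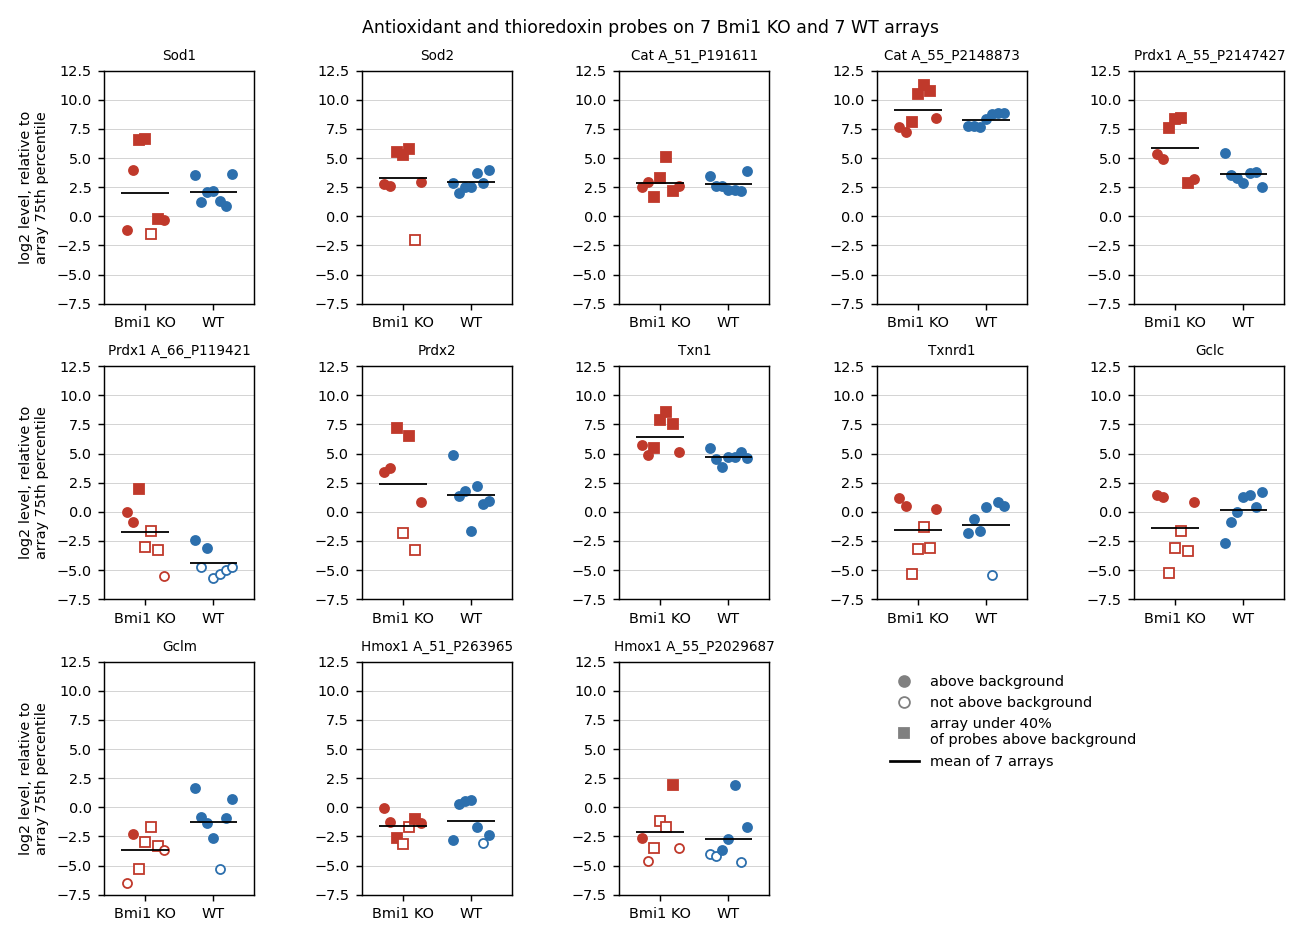
Levels of the 13 member probes (log2, relative to each array's 75th percentile) on 7 Bmi1 KO arrays, left, and 7 WT arrays, right, with the mean of each genotype as a line. Filled symbols are above background, open symbols are not, and squares are the 4 KO arrays with under 40% of probes above background; KO values spread more widely than WT values for most probes, and most open symbols are on KO squares.

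Sod1, the cytosolic copper-zinc superoxide dismutase, did not pass the test and was among the least even members across KO arrays. In KO its level was −1.16, 3.98 and 6.51 in set 1, and 6.66, −1.48, −0.26 and −0.36 in set 2. On WT arrays it lay between 0.91 and 3.64 with a median of 2.06. Sod1 in KO thus fell on both sides of the WT range, with 3 KO arrays above all WT arrays and 4 below all of them. The mean was 1.99 ± 3.62 in KO and 2.12 ± 1.10 in WT (SD, n = 7 each). The difference was −0.13 with a standard error of 1.27 (adjusted p = 0.967, limma), and its 95% interval reached from −2.82 to 2.56.

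Sod2, the manganese enzyme of the mitochondrial matrix, also did not pass. In KO it read 2.74, 2.59 and 5.50 in set 1, and 5.29, 5.74, −2.06 and 2.97 in set 2. WT arrays lay between 1.99 and 3.98, with a median of 2.88. Sod2 was above the WT range on 3 KO arrays and far below it on KO set 2 replicate 3, the 1 array where it was not above background. The difference was 0.32 with a standard error of 1.01 (adjusted p = 0.892, limma), equal to the median of all tested probes.

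Cat, the peroxisomal catalase, gave different profiles from its pair of probes, and neither passed the test. In KO the coding probe read 2.54, 2.95 and 1.70 in set 1 and 3.26, 5.10, 2.17 and 2.58 in set 2, against a WT range of 2.19 to 3.91. Its difference was 0.15 with a standard error of 0.61 (adjusted p = 0.920, limma), and only KO set 2 replicate 2 stood above the WT range. In KO the CA-run probe read 7.62, 7.23 and 8.10 in set 1 and 10.47, 11.27, 10.78 and 8.43 in set 2, against 7.67 to 8.88 on WT arrays. It was above the WT range on KO set 2 replicates 1, 2 and 3, and its difference was 0.84 with a standard error of 0.57 (adjusted p = 0.471, limma). The correlation of both probes over the 14 arrays was 0.43.

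The CA-run probe followed other probes with a CA run more closely than it followed the other probe for catalase. A run of at least 12 alternating bases was found in 62 probes, 0.111% of the array, under 62 gene names. Of these, 98.4% were above background on all 14 arrays, against 12.7% of all probes. The median correlation of the Cat CA-run probe with the others was 0.98 over the 14 arrays, and that of the coding Cat probe with them was 0.46. The kept CA-run probes had a median difference of 1.04 between KO and WT, near the 0.84 of the Cat CA-run probe, and 0 of them passed the test. Cat was the 1 gene among the members and the 67 related genes below whose leading probe held such a run. Values of this probe are therefore given apart from those of the coding probe, and whether it reads catalase transcript was not tested.

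**Figure D2:**
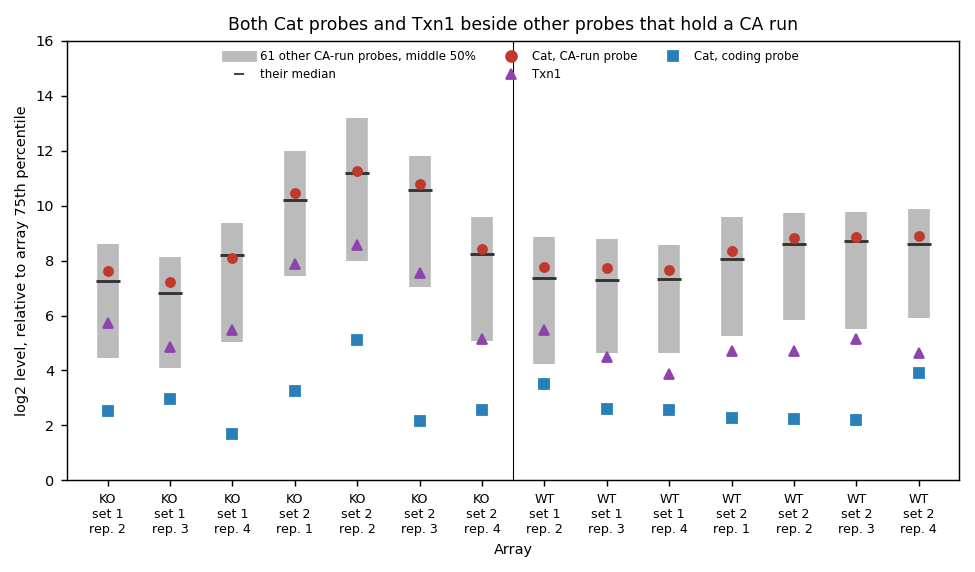
Levels (log2, relative to each array's 75th percentile) of both Cat probes and of Txn1 on each array, Bmi1 KO left and WT right, beside the middle 50% (grey bars) and the median (dash) of the 61 other probes with a CA run. The Cat CA-run probe followed that median, while the coding Cat probe was above its WT range on 1 (set 2 replicate 2) of the 3 KO arrays with raised medians.

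Among the thioredoxin and peroxiredoxin members, Txn1 and Prdx1 read higher in KO. Txn1, the cytosolic thioredoxin that reduces peroxiredoxins, was detected on all arrays. In KO it read 5.73, 4.86 and 5.46 in set 1 and 7.88, 8.56, 7.56 and 5.13 in set 2. On the WT arrays it read 5.49, 4.50 and 3.88 in set 1 and 4.72, 4.71, 5.16 and 4.65 in set 2. The 3 highest values were those of KO set 2 replicates 1, 2 and 3, the 3 arrays with the fewest probes above background, and the remaining KO arrays lay within or just above the WT range. The mean was 6.46 ± 1.50 in KO and 4.73 ± 0.51 in WT (SD, n = 7 each), a difference of 1.73 or 3.31-fold with a standard error of 0.63 (unadjusted p = 0.0141, adjusted p = 0.319, limma). The Txn1 difference was 0.39 with quantile normalization, on the deposited values and with scaling to always-detected probes, and 0.41 with normexp. These had unadjusted p between 0.203 and 0.367 (limma). With scaling to the median of kept probes it was 1.96 (unadjusted p = 0.00871, limma). Scaling to always-detected probes moves all probes together, so the value of Txn1 relative to all probes, 1.41, is the same there by construction. Relative to the 75th percentile the difference was 0.73 in set 1 and 2.47 in set 2, and the dependence on the set had an adjusted p of 0.876. Over the 14 arrays Txn1 had a correlation of −0.91 with the share of probes above background and a median correlation of 0.87 with the CA-run probes. Without the 4 KO arrays under 40% the difference was 0.53 (unadjusted p = 0.292, adjusted p = 0.976, limma), from 3 KO arrays.

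Prdx1, a typical 2-Cys peroxiredoxin of the cytosol, was detected on all arrays by its brighter probe. In KO that probe read 5.34, 4.93 and 7.61 in set 1, and 8.36, 8.47, 2.84 and 3.24 in set 2. The WT arrays read 5.44, 3.57 and 3.32 in set 1, and 2.83, 3.75, 3.77 and 2.54 in set 2. Prdx1 was above every WT array on 3 KO arrays, set 1 replicate 4 and set 2 replicates 1 and 2, and within the WT range on the other 4. The mean was 5.83 ± 2.35 in KO and 3.60 ± 0.93 in WT (SD, n = 7 each), a difference of 2.22 or 4.67-fold with a standard error of 0.92 (unadjusted p = 0.0278, adjusted p = 0.354, limma). The Prdx1 difference was 0.94 with quantile normalization, 0.95 on the deposited values, 0.89 with scaling to always-detected probes and 0.90 with normexp. These had unadjusted p between 0.123 and 0.194 (limma). With scaling to the median of kept probes it was 2.46 (unadjusted p = 0.0210, limma). Scaling to always-detected probes moves all probes together, so the value of Prdx1 relative to all probes, 1.90, is the same there by construction. Both sets ran the same way, with 1.85 in set 1 and 2.50 in set 2. Without the 4 KO arrays under 40% the difference was 0.62 (adjusted p = 0.987, limma).

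The dimmer Prdx1 probe, in the 3′ untranslated end at chr4:116372422-116372481, cleared background on 3 KO and 2 WT arrays and so entered no fit. It was detected on the KO arrays of set 1, at −0.01, −0.88 and 2.00, where the WT arrays read −2.40, −4.69 and −3.14. In set 2 it was detected on 0 arrays. An exact two-sided permutation of genotype within sets gave p = 0.00571 for a mean of −1.77 ± 2.45 in KO against −4.42 ± 1.20 in WT (SD, n = 7 each), but 4 of the 7 KO values were not above background. Over the 14 arrays both Prdx1 probes had a correlation of 0.67.

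Prdx2, the peroxiredoxin abundant in red cells, was uneven across KO arrays. In KO it read 3.40, 3.77 and 7.22 in set 1 and −1.85, 6.52, −3.31 and 0.86 in set 2, and was not above background on set 2 replicates 1 and 3. WT arrays lay between −1.61 and 4.85. The difference was 0.91 with a standard error of 1.29 (adjusted p = 0.746, limma), with 2.13 in set 1 and 0.00 in set 2. The 2 KO arrays above the WT range, set 1 replicate 4 and set 2 replicate 2, had the highest Hba-a1 values among KO arrays, 9.72 and 12.09. Hbb-b1, the other haemoglobin gene on the erythroid list, read −0.25 and 6.33 there and 0.68 on KO set 1 replicate 2. Whether red cells add to the Prdx2 values was not tested. On WT set 2 replicate 3, Hba-a1 was as high as 10.37 and Prdx2 was at 0.68.

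Txnrd1, the cytosolic selenoprotein that keeps thioredoxin reduced, was detected by 3 KO and 6 WT arrays. The 3 KO arrays with detection read 1.21, 0.54 and 0.20, and the WT arrays lay between −5.41 and 0.80. The other KO values, −5.34 and between −3.20 and −1.28, were those of the 4 arrays under 40%. The difference was −0.46 with a standard error of 1.13 (adjusted p = 0.859, limma), and it was 1.78 without those 4 arrays (adjusted p = 0.951).

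**Figure D3:**
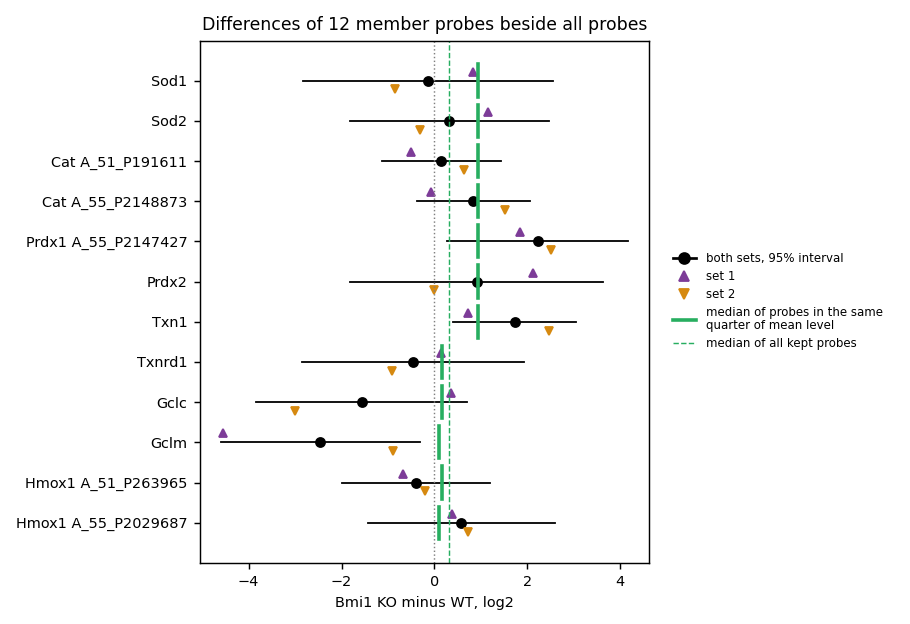
Difference of Bmi1 KO minus WT (log2, x axis) for the 12 tested member probes, with 95% intervals as lines, the values of set 1 and set 2 as triangles, and green marks for the median difference of probes in the same 25% of mean level. The intervals of Txn1, Prdx1 and Gclm leave out 0, and 6 of the 12 probes had opposite signs in the sets.

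Glutathione synthesis starts with glutamate-cysteine ligase, whose catalytic subunit is Gclc and whose modifier subunit is Gclm. Both read lower in KO and neither passed the test. In KO, Gclm read −6.50, −2.30 and −5.29 in set 1 and −2.98, −1.69, −3.35 and −3.68 in set 2. The WT arrays read 1.67, −0.79 and −1.32 in set 1 and −2.67, −5.29, −0.90 and 0.70 in set 2. Gclm was above background on 1 of 7 KO arrays, set 1 replicate 3, and on 6 of 7 WT arrays. The mean was −3.68 ± 1.69 in KO and −1.23 ± 2.27 in WT (SD, n = 7 each), a difference of −2.45 with a standard error of 1.02 (unadjusted p = 0.0277, adjusted p = 0.354, limma). The Gclm difference was −3.79 with scaling to always-detected probes and −1.10 with normexp (adjusted p = 0.0964 and 0.270, limma). With scaling to the median of kept probes, instead of to always-detected probes, it was −2.22. Both of these scalings move all probes together, so the value of Gclm relative to all probes, −2.77, is the same there by construction. By set the difference was −4.55 in set 1 and −0.88 in set 2, with an adjusted p of 0.876 for the dependence on the set. Without the 4 KO arrays under 40% the difference was −3.21 (unadjusted p = 0.0475, adjusted p = 0.814, limma). Of the 3 brighter KO arrays, 2 did not detect Gclm.

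Gclc behaved unlike its partner over the arrays, with a correlation of 0.01 between the genes over the 14 arrays. In KO it read 1.48, 1.30 and −5.24 in set 1 and −3.11, −1.67, −3.32 and 0.88 in set 2, against −2.64 to 1.66 on WT arrays. The 3 KO arrays that detected Gclc lay in the upper part of the WT range, and the 4 that did not were those under 40%. All 7 WT arrays detected it. The difference was −1.57 with a standard error of 1.07 (adjusted p = 0.468, limma), 0.35 in set 1 and −3.01 in set 2. Without the 4 KO arrays it was 1.41 (adjusted p = 0.892).

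Hmox1, the inducible heme oxygenase, showed no difference past the test on either probe, and its probes did not follow each other (correlation −0.04 over the 14 arrays). The probe in the 3′ untranslated end was detected by 5 KO and 6 WT arrays, and lay between −3.18 and −0.09 in KO and between −3.10 and 0.60 in WT. Its difference was −0.40 with a standard error of 0.75 (adjusted p = 0.812, limma). The coding probe was detected by 2 KO and 4 WT arrays, with a difference of 0.58 and a standard error of 0.95 (adjusted p = 0.784). Its highest values were 1.92 on KO set 2 replicate 3 and 1.94 on WT set 2 replicate 2.

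**Figure D4:**
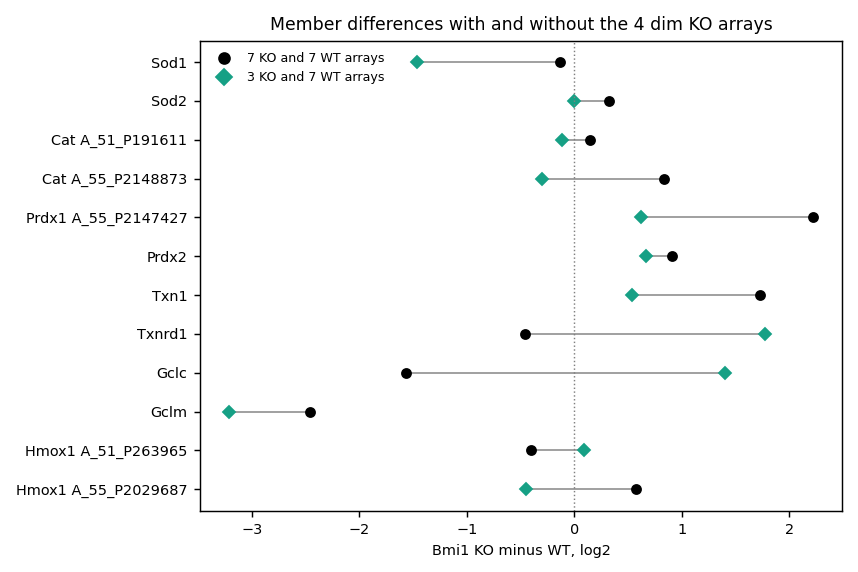
Difference of Bmi1 KO minus WT (log2, x axis) for the 12 tested member probes over all 14 arrays (circles) and without the 4 KO arrays under 40% of probes above background (diamonds, 3 KO and 7 WT arrays). Of the 12 probes, 7 changed sign, those of Gclc, Txnrd1, Sod2, both of Cat and both of Hmox1, while Txn1 and Prdx1 moved toward 0 and Gclm stayed below −2.

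Over the group, the median difference of the 12 tested member probes was 0.23, against 0.32 over all tested probes. Of the 12, 6 lay above that overall median and 6 below, where 50% of all probes lie above it. The overall shift itself depended on brightness, with a median of 0.93 in the brightest 25% of probes by mean level and 0.11, 0.16 and 0.11 in each further 25%, from the dimmest up. The brightest 25% held 7 member probes, of which Txn1 and Prdx1 exceeded its median by 0.80 and 1.29. The others lay below that median, at −0.02 for Prdx2, −0.09 for the Cat CA-run probe and −0.61 for Sod2 relative to it. The coding Cat probe was at −0.78 and Sod1 at −1.06. Gclm was among the dimmest 25%, and differed from their median by −2.56. The direction differed between sets for 6 of 12 member probes and for 39.5% of all tested probes, and 0 members had a dependence on the set past the test, by unadjusted p too (0 of all tested probes by adjusted p; 5.37% by unadjusted p).

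The number of member probes above background followed the brightness of the arrays. Of the 13 probes, KO arrays of set 1 detected 12, 12 and 9, and those of set 2 detected 6, 6, 7 and 10. WT arrays detected between 10 and 13. The 3 lowest numbers, 6, 6 and 7, were on the arrays with 29.9%, 20.6% and 31.6% of all probes above background. The members always detected were Cat, Prdx1 by its brighter probe, and Txn1.

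Promoter sequence was looked at for the members with the largest differences in opposite directions. RefSeq windows of 250 bases before to 50 after a start (GRCm38.p6) were at hand for 8 of the 10 genes in 10 windows. The core letters TGACNNNGC of the antioxidant response element, on either strand, were in windows of 4 of these genes, Gclm, Prdx1, Txnrd1 and Sod1. They were in 12.4% of all 32851 windows. That share counts windows and not genes, and Txnrd1 alone had 3 windows, so it cannot be set against the count of genes. The stretches of Prdx1, chr4:116685450-116685490, and of Gclm, chr3:122245407-122245447, both on the plus strand, carry it on the opposite strand, in capitals. A match is a description of letters, and the same core stood in a gene that read higher and in one that read lower in KO.
Prdx1 promoter: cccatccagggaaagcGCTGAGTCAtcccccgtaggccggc
Gclm promoter: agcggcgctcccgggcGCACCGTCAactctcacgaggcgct

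The genes whose profile over the 14 arrays was most like that of the 3 members with the smallest p-values were looked up. For Txn1, a transcript probe named NAP071796-1 had a correlation of 0.96. For Prdx1 the highest were Atp5b, a subunit of mitochondrial ATP synthase, with 0.97, and the unnamed probe A_55_P2130965 with 0.96. For Gclm the highest were an intergenic transcript probe, A_30_P01027157, and Gpr89, both with 0.93. The part of array brightness in these correlations was not tested. With the share of probes above background, Txn1 had a correlation of −0.91, Prdx1 of −0.66 and Gclm of 0.06.

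Among 67 related genes, taken by lists of the same pathways, 50 were tested and 0 passed, while 8 read higher and 1 lower at unadjusted p under 0.05. Of the 50, 24 were in the brightest 25% of probes, and 7 of these read higher at that p, where 17.9% of all probes of that brightness did. The median difference of the 50 lay 0.64 above that of all tested probes, 0.32, with 32 of 50 above it. With 1 probe per gene, as in these lists, the median over all genes was 0.47. Of the other thioredoxin and peroxiredoxin genes, 14 of 18 were tested and 1, the methionine sulfoxide reductase Msrb2, read higher at unadjusted p under 0.05 (1.96, adjusted p = 0.309). Next by p among genes reading higher were the mitochondrial thioredoxin Txn2 at 1.17 and the glutaredoxin Glrx2 at 1.11, and among genes reading lower Prdx6 at −1.13, Glrx5 at −0.76 and Txnrd2 at −0.45. Prdx6, a 1-Cys peroxiredoxin, differed by 2.03 in set 1 and by −3.51 in set 2. All 3 KO arrays of set 1 were above the WT arrays of that set and all 4 KO arrays of set 2 were below theirs, but Prdx6 was not above background on 3 of those 4, replicates 1, 2 and 3, so the set 2 value rests mostly on undetected signal (dependence on the set, unadjusted p = 0.0011, adjusted p = 0.863, limma).

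Of the glutathione genes, 14 of 20 were tested, and 3 read higher at unadjusted p under 0.05. These were Ggct, which cleaves gamma-glutamyl amino acids, at 2.22, the transferase Gstp1 at 1.88 and the peroxidase Gpx1 at 1.88. Gstm1 at −1.82, Gstk1 at −0.62 and the glutathione synthetase Gss at −0.18 read lower. None of these passed (adjusted p = 0.316 for Ggct, limma). Of the genes of superoxide handling, 6 of 8 were tested, and the NADPH oxidase subunits Ncf1 at 2.05 and Rac2 at 1.97 read higher at unadjusted p under 0.05, with the catalytic subunit Cybb at 1.57 and its partner Cyba at −1.20.

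Of the NRF2 and BACH regulators and other targets, 16 of 21 were tested. Nfe2l2, which encodes NRF2, differed by 0.00 and its inhibitor Keap1 by −0.32. Fth1, the ferritin heavy chain, at 2.24 and the pentose phosphate enzyme Tkt at 2.63 read higher at unadjusted p under 0.05, with Sesn1 at 1.50 next by p. Bach2, a B cell repressor that competes for the same promoter elements, read lower. It was detected by 2 KO and all 7 WT arrays, and 6 of 7 KO arrays lay below every WT array. The KO arrays that did not detect Bach2 were the 4 under 40% and set 1 replicate 2, so the low values are mostly undetected signal. The 2 with detection read −0.47 and 1.38, against −0.24 to 1.59 on WT arrays. The difference was −3.16 with a standard error of 0.94 (unadjusted p = 0.00386, adjusted p = 0.256, limma), −4.34 in set 1 and −2.28 in set 2. Sqstm1 at −1.34 and G6pdx at −0.75 followed. Without the 4 KO arrays under 40%, 1 of the 50 related genes had an unadjusted p under 0.05 in place of 9. That fit rests on fewer KO arrays, and the share of all tested probes at that p in it is not given here. The lower count is therefore not read as particular to these genes.

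**Figure D5:**
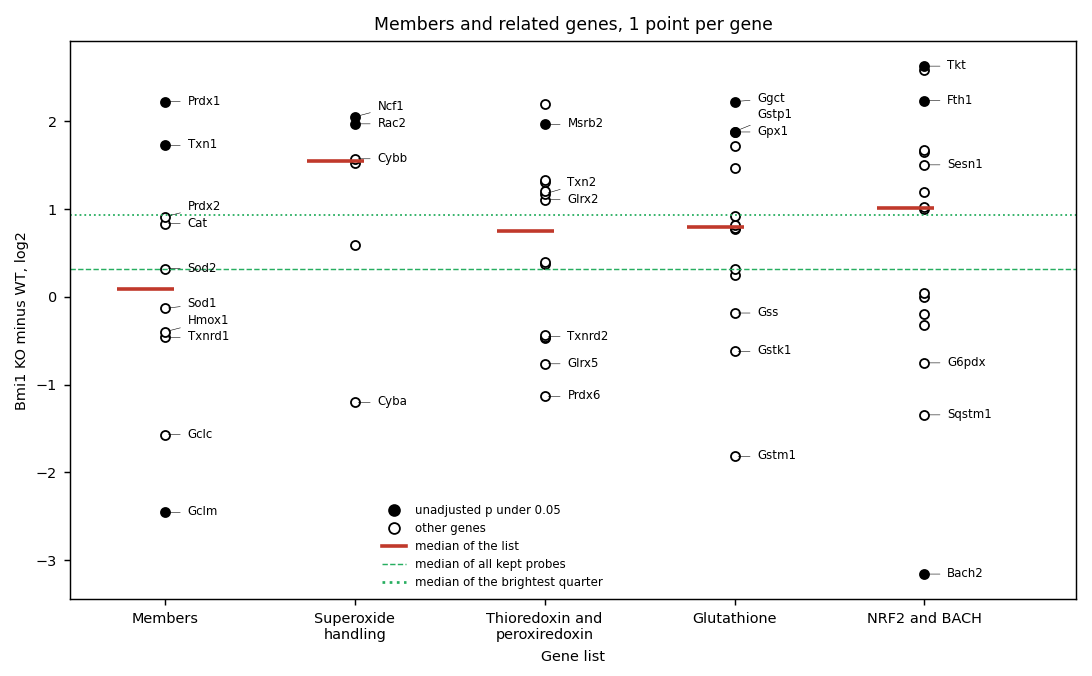
Difference of Bmi1 KO minus WT (log2, y axis) for each tested gene of the members and of 4 related lists, by its leading probe, with filled points for unadjusted p under 0.05, red marks for list medians and green lines for the medians of all tested probes and of the brightest 25%. The members' median lay below, and that of every related list above, the median of 0.32 over all tested probes. With 1 probe per gene, as in these lists, the median over all genes was 0.47. The medians of the thioredoxin and glutathione lists, 0.75 and 0.80, lay below the 0.93 of the brightest 25%. Those of the NRF2 and BACH list and of superoxide handling, 1.01 and 1.55, lay above it.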

How the data were processed

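Members and gene lists were chosen with earlier results of these data known. The scanner files hold spot intensity, deposited as written by Agilent Feature Extraction 10.7.3.1 per the file headers, with mm9 positions; other deposited columns score each spot as 0 or 1 for being above background or an outlier. Values analysed were log2 of the processed intensity minus the 75th percentile of all non-control spots on that array. Spots with an outlier mark were dropped, and repeated spots averaged; 0 spots were saturated. Probes above background on at least 4 of 7 arrays of either genotype were kept (12 of 13 member probes, 29679 in all). The authors' deposited log2 values, with a median of 3.952 in every column and Spearman's rho of at least 0.9993 with the scanner values, were an alternative; higher means more signal and genes are not centred, and their tool is not given by the labels. Models were fitted in R 4.3.3 by limma 3.58.1 with terms for KO and experiment set, two-sided, Benjamini-Hochberg over all kept probes, threshold 0.05, and a contrast of the sets' differences. The probe outside the fit had an exact permutation test within sets (1400 arrangements). The code was tested on simulated data. Figures used matplotlib 3.10.9 in Python 3.11.15.

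Every member is named; related genes are named by the 3 smallest unadjusted p per direction and list, by the kept probe with the highest mean, and likeness by the 2 highest correlations for the 3 members with the smallest p (1 of these correlations is not reported here). Nfe2l2, Keap1, Cd5, Bhlhe41, Spn, Zbtb32, Hba-a1 and Hbb-b1 are named outside that rule, after their values were seen. Names follow the array design and can be old. Slide and scan coincided: set 1 lay on slide 1, all KO arrays of set 2 and 2 of its WT arrays on slide 2, and 2 WT arrays on slide 3. Alternatives were other scalings, normexp, other filters, slide or replicate blocks, array weights, 1 probe per gene, within-slide fits, and leaving out arrays. Which Cat probe is used, and leaving out the Cat CA-run probe, were alternatives chosen after seeing the data.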

Additional observations from a re-analysis of the deposited data

Results flagged for a closer look

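Among 70 groups of 7 arrays tested, for 35 named probes in each genotype, 5 had an array whose gap to the others was wide for the range of its group, and chance marks about 1 in 20 groups. Sod2 was at −2.06 on KO set 2 replicate 3, where it was not above background. Sqstm1 was at −2.91 on the same array. Prdx1 was at 5.44 on WT set 1 replicate 2, its highest WT value, and Cyba was at 5.37 on that array. Txnrd1 was at −5.41 on WT set 2 replicate 2, the 1 WT array where it was not above background. Prdx6 had all KO arrays above the WT arrays in set 1 and all below in set 2, where it was not above background on 3 of the 4 KO arrays. The difference of set 2 minus that of set 1 was −5.54, with an unadjusted p of 0.0011 and an adjusted p of 0.863 (limma).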

How the results depend on the processing

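The count of members past the test was 0 under every alternative run and every array left out, with 0 to 4 members at unadjusted p under 0.05; related genes and dependence of members on the set also gave 0. Probes called over the whole array, 9 here, were 132 with scaling to always-detected probes (1 higher, 131 lower), 26 with quantile normalization or the deposited values (1 higher, 25 lower), 33 with normexp (3 higher, 30 lower), 42 with array weights (4 higher, 38 lower), 5 with 1 probe per gene or without the 4 KO arrays under 40%, 1 among probes above background on all arrays, and 0 within slide 1 or slide 2 alone. With 1 array left out they were 5 to 65, with 65 without KO set 1 replicate 3, 37 without KO set 2 replicate 4, and 5 without KO set 1 replicate 2 or 4, WT set 1 replicate 3 or 4, or WT set 2 replicate 1, 2 or 3. The cause was not tested. Same-numbered arrays of KO and WT had deviations correlated between −0.22 and 0.19, and 1 of 7 KO arrays correlated best with its own number, so the numbers are not taken as pairs; with a replicate block 8 probes and 0 members passed. The median difference of all probes was −1.02, −0.16, 0.56, 0.00 and −0.16 under scaling to always-detected probes, quantile normalization, scaling to the median of kept probes, normexp and the deposited values, so members are set against it.

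Relative to all probes, Cat changed sign to −0.31 with quantile normalization or the deposited values, −0.48 with normexp, −0.24 among always-detected probes, −0.18 without the 4 KO arrays, −0.034 within slide 1 and −0.17 with its coding probe. Sod2, at 0.00 to begin with, was at −0.62 with quantile normalization or the deposited values, −0.57 with normexp, −0.39 with no filter, −0.15 with 1 probe per gene and −0.48 within slide 2. Sod1 was at 0.35 with array weights and 0.87 within slide 1. Txnrd1 was at 0.25 with array weights, 1.89 without the 4 KO arrays and 0.18 within slide 1. Gclc was at 1.52 without the 4 KO arrays and 0.39 within slide 1, and Hmox1 at 0.21 without those arrays. With 1 array left out, Sod2 lay between −0.48 and 0.99, Sod1 between −1.31 and 0.20, and Prdx2 between −0.26 and 1.39. Txn1 lay between 1.24 and 1.70, Prdx1 between 1.47 and 2.43 and Gclm between −3.44 and −2.20. Other settings moved them further. Txn1, 1.41 here, was at 0.55 with quantile normalization or the deposited values, 0.41 with normexp, 0.65 among always-detected probes or without the 4 KO arrays, and 0.77 within slide 1. Prdx1, 1.90 here, was at 1.10 with quantile normalization or the deposited values, 0.90 with normexp, 1.15 among always-detected probes and 0.74 without the 4 KO arrays. Gclm, −2.77 here, was at −1.10 with normexp, −4.51 within slide 1 and −1.89 within slide 2. The median of the members relative to all probes, −0.09 here, lay between −0.29 and 0.08 with 1 array left out. It was −0.17 without the Cat CA-run probe. Other settings moved it further, both ways. The member median was −0.78 against −0.16 over all probes with quantile normalization, and −0.47 against −0.003 with normexp. With array weights it was 0.26 against 0.03, and within slide 1 it was 0.37 against −0.04. Fits that leave 3 KO arrays, or 1 KO array in set 2, assume that these vary like the other groups. Low signal on 4 KO arrays limits what can be said of the dim members.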
